A study of Homo sapiens with 6 samples.

Results

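The stress-responsive transcription factor ATF4 and 9 genes that act with it or lie in the serine and one-carbon pathway were examined in RD cells after knockdown of TAK1, the kinase encoded by MAP3K7. The members were taken from the deposited counts by gene symbol (ATF4, ATF5, DDIT3, ASNS, TRIB3, CHAC1, SESN2, PHGDH, PSAT1 and MTHFD2), and all 10 were found among the 58735 rows and passed the filter on low counts, as did 15935 genes in all. RD is an established cell line of embryonal rhabdomyosarcoma, a tumor with features of immature skeletal muscle. The control group held 3 libraries from RD cells transduced with lentivirus carrying a scrambled shRNA, and the TAK1 knockdown group held 3 libraries from RD cells transduced with lentivirus carrying TAK1 shRNA, so both groups share the virus and the cell line. A single TAK1 shRNA sequence was used for RNA-Seq, hence loss of TAK1 and any other action of that construct cannot be told apart. Total counts per library ran from 28839898 to 34469323. Nothing in the labels says that the replicates were separate transductions, and p-values measure the spread between these libraries.

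ATF4 is a leucine zipper transcription factor whose protein is made mainly when the kinases PERK, GCN2, PKR or HRI phosphorylate the initiation factor eIF2α, which lowers general translation but favors translation of the ATF4 mRNA. It binds composite C/EBP-ATF response elements and activates genes for amino acid synthesis, amino acid uptake and tRNA charging, and under lasting stress genes such as DDIT3 that promote cell death. Serine is made from a glycolytic intermediate by PHGDH, PSAT1 and PSPH in turn, and its carbon then enters the folate cycle, where MTHFD2 acts in mitochondria. These enzymes are strongly expressed in many proliferating tumor cells. Because ATF4 is controlled largely through translation, its mRNA level is a limited measure of its activity.

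To show where the letters of a C/EBP-ATF response element lie near these genes, the windows from 250 bases before to 50 bases after each annotated start (RefSeq, GRCh38.p14) were searched for TGATGNAA on both strands. Of the 10 members, all with at least 1 window, 2 held a match, compared with 4.46% of the 27305 genes that have a window (3.62% of 35116 windows). The matches lay in ASNS, the asparagine synthetase gene, and in CHAC1, which encodes an enzyme that degrades glutathione. Both are printed with 3 matches from related genes, for the mitochondrial folate enzyme MTHFD1L, the branched-chain aminotransferase BCAT1 and the amino acid transporter SLC38A1. Each is read 5′ to 3′ on the strand of its gene, with the matching letters or their reverse complement in capitals.
ASNS, chr7:97872458-97872487, minus strand, match from base -68: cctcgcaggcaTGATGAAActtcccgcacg
CHAC1, chr15:40953251-40953280, plus strand, match from base -209: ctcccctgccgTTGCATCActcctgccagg
MTHFD1L, chr6:150866346-150866375, plus strand, match from base -129: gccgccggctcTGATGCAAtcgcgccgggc
BCAT1, chr12:24949131-24949160, minus strand, match from base -48: tgtcttcctgcTGATGCAAtccgctaggtc
SLC38A1, chr12:46266502-46266531, minus strand, match from base -4: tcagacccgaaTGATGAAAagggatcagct

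Among the related genes the same letters were found in 7 of the 9 tRNA synthetase genes and in 5 of the 9 amino acid transporter genes that had a window under their symbol, and in 1 of 10 genes of serine, glycine and one-carbon metabolism. They were in 4 of 18 other stress targets of ATF4 and 2 of 8 other amino acid synthesis targets. They were also in 1 of 17 eIF2α kinase, eIF2B and regulator genes, 1 of 19 IRE1 and ATF6 arm genes and 1 of 8 paralogs of the members. The windows of ATF4, ATF5, DDIT3, TRIB3, SESN2, PHGDH, PSAT1 and MTHFD2 held none, which says only that these letters are not in these windows.

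TAK1 knockdown was examined first. MAP3K7 reached 77.9, 76.5 and 77.6 CPM (counts scaled to a normalized library total of 1000000) in the control libraries and 30.5, 33.6 and 29.9 CPM in the knockdown libraries, a log2 fold change of -1.30 (SE 0.062). In bulk RNA, fewer cells of a type and less RNA per cell cannot be told apart, for this gene and the members alike. Of the lineage markers of skeletal muscle, MYOD1, MYOG, DES, CHRNA1 and CDH15 were expressed and MYF5 had no count. The 5 immune markers together reached at most 0.445 CPM and the 4 endothelial markers at most 0.162 CPM in any library. Of the 5 epithelial markers, KRT18 carried nearly all the signal, and their summed level was 52.5 to 59.8 CPM in control and 25.5 to 28.1 CPM in knockdown libraries, while CDH1 and KRT14 had no count. The muscle markers summed to 1878 to 1909 CPM in control and 1791 to 1901 CPM in knockdown libraries, but single markers moved apart. MYOD1 and MYOG were called higher, with log2 fold changes of 0.37 and 0.27, and CHRNA1 was called lower at -0.40, while CDH15 had 0.23 and DES 0.089, and the groups did not overlap for any of these 5. Mitochondrially encoded RNA made up 0.991% to 1.13% of the counts in control libraries and 1.22% to 1.33% in knockdown libraries. The part of these differences in the results for the members was not tested.

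The members spanned a wide range of expression in RD cells. To compare genes, counts were divided by the length of each gene's canonical transcript in GENCODE 44 and scaled to a total of 1000000 per library (transcript abundance, TPM). In control libraries ATF4 was the highest member at 507 ± 15.6 TPM (SD, n = 3), above 98.1% of the tested genes with a length. The first enzymes of serine synthesis followed, PHGDH with 362 ± 2.38 TPM and PSAT1 with 330 ± 11.1 TPM (SD, n = 3). MTHFD2 reached 102 ± 2.99 TPM and ATF5, a relative of ATF4 that supports the mitochondrial stress response, 46.2 ± 1.64 TPM (SD, n = 3). The remaining members lay below the median of tested genes, 18.6 TPM. These were TRIB3, a pseudokinase that restrains ATF4 and AKT signaling, at 17.9 ± 0.234 TPM, DDIT3, which encodes the factor CHOP, at 14.8 ± 1.43 TPM, and SESN2, a leucine sensor upstream of mTORC1, at 8.83 ± 0.548 TPM (SD, n = 3). CHAC1 had 8.14 ± 1.20 TPM and ASNS 0.935 ± 0.169 TPM (SD, n = 3). Along this order the 3 control libraries of neighboring genes overlapped only for SESN2 and CHAC1. The order also depends on the single length used for each gene, whose error is not part of this spread. For PHGDH that length was 1866 bases, while all its annotated exons cover 9187. Differences in level between genes were not tested.

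**Figure D1:**
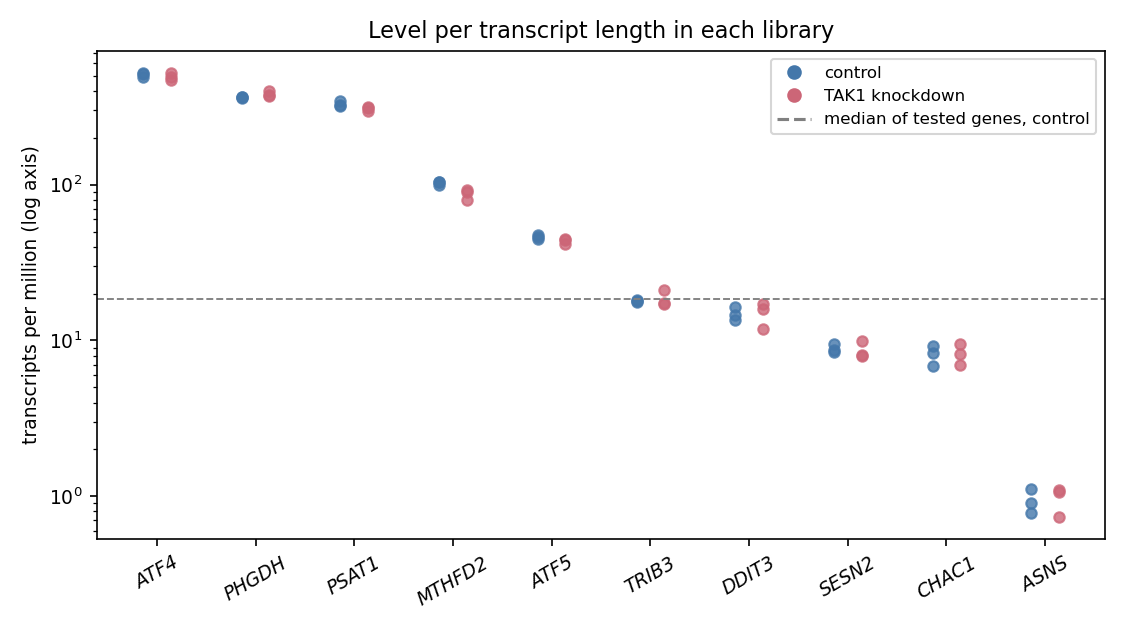
Level of each member per transcript length in the 6 libraries, in TPM on a log axis, with control libraries in blue and TAK1 knockdown libraries in red. The dashed line is the control median of tested genes, 18.6 TPM, which ATF4, PHGDH, PSAT1, MTHFD2 and ATF5 exceed in every library, while ASNS lies near 1 TPM.

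The low level of ASNS rests on 23 to 36 counts per library. In GENCODE 44, ASNS (ENSG00000070669.17, minus strand of chromosome 7, 97851677 to 97872542) shares 99.5% of the bases of its canonical transcript with a long noncoding RNA gene on the same strand, and RefSeq places the read-through gene CZ1P-ASNS, from 97852117 to 97972358, over it. Whether reads in shared exons were counted for ASNS is not given in the sources used here, so its level is uncertain. DDIT3 shares 24.3% of its canonical transcript with genes on the opposite strand, among them MARS1 (MARS in the counts), and 11.6% with a gene on its own strand. The MARS row held 6789 to 8571 counts per library beside 140 to 198 for DDIT3, and its log2 fold change was 0.038. MBD6, also on the opposite strand, held 2042 to 2691 counts per library. Its log2 fold change was 0.14 (edgeR adjusted p of 0.0551), with no overlap between the groups. MTHFD2 shares 36.8% with SLC4A5 and another protein-coding gene on the opposite strand. The SLC4A5 row held 2 to 13 counts per library, and the counts of that other gene were not examined. ATF5 shares 9.77% with NUP62 and IL4I1 on the opposite strand. NUP62 held 5631 to 6581 counts per library and had a log2 fold change of -0.17 (edgeR adjusted p of 0.0054), with no overlap between the groups. The strand setting of the counting is not known here. The part of NUP62 reads in the ATF5 values was not tested, nor was that of the genes over DDIT3 and MTHFD2 in their values. The canonical transcripts of ATF4, TRIB3, CHAC1, SESN2, PHGDH and PSAT1 share no base with another annotated gene. The 18 pseudogene rows of the members had at most 6 counts in any library.

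The main comparison was between TAK1 knockdown and control cells. MTHFD2, which makes formate precursors from serine carbon in mitochondria, was the only member called, meaning that its adjusted p was below 0.05 and its log2 fold change reached 0.25 in either direction. PSAT1 was also lower, by a smaller amount that passed the adjusted p but not the fold threshold. The stress genes DDIT3, TRIB3, CHAC1 and SESN2, ASNS, and the serine pathway gene PHGDH had log2 fold changes between -0.085 and 0.024, and none of them passed the adjusted p. Thus 1 of 10 members was called lower and 0 were called higher. Across the 15935 genes tested, 11.3% were called lower, 11.8% higher and 23.1% in either direction, and the members' 1 in 10 lower was near the share of all genes. Beside the count of 0, edgeR gave 0 members higher at an unadjusted p under 0.05, and DESeq2 and limma-voom also called 0 higher. At that unadjusted p edgeR had 4 members lower, which were MTHFD2, PSAT1, ATF5 and ATF4. The share of all genes at that unadjusted p was not counted, here or for the lists below. Even the adjusted p was passed by 33.3% of all genes tested without a fold threshold, so this count is not read as a trait of the members. The median log2 fold change was -0.066 for the members and 0.018 for all genes tested.

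**Figure D2:**
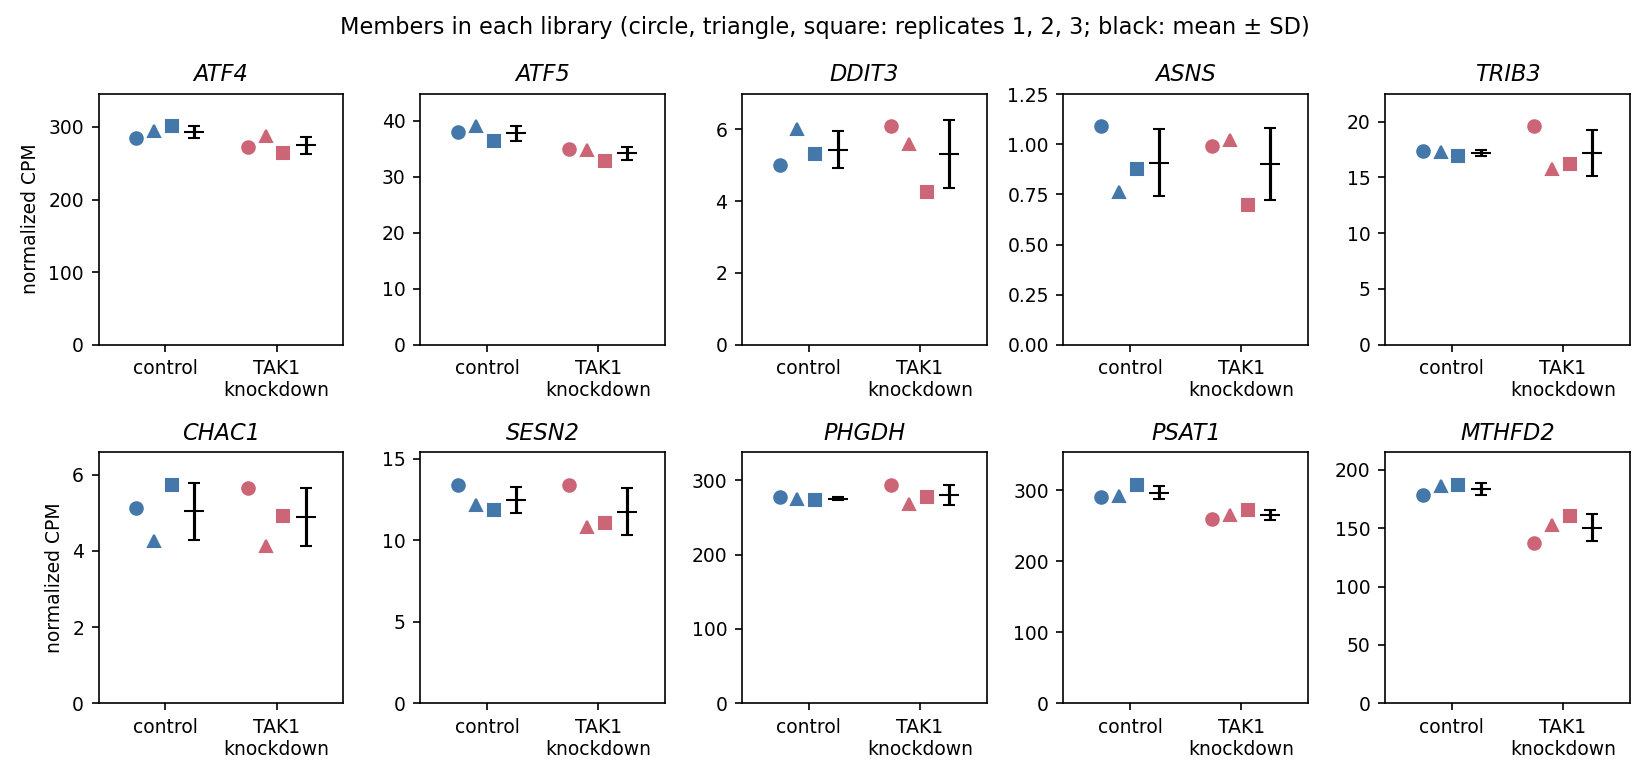
Normalized CPM of each member in every library, on linear axes that start at 0, with control in blue and TAK1 knockdown in red, and the mean ± SD in black. The groups do not overlap for ATF5, PSAT1 and MTHFD2, and they overlap for the other 7 members.

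MTHFD2 (chromosome 2, 74186172 to 74217565) had 178, 186 and 187 CPM in the control libraries and 138, 153 and 161 CPM in the knockdown libraries, from 4027 to 5854 counts each. All 3 knockdown libraries lay below all control libraries, and replicate 1 of the knockdown was the lowest. The means were 184 ± 4.91 and 150 ± 11.7 CPM (SD, n = 3), and the log2 fold change was -0.29 (SE 0.053, 95% interval -0.40 to -0.18), with a Benjamini-Hochberg adjusted p of 0.000128 in edgeR. This corresponds to a level 18.1% lower by the fit. The two-sided exact permutation p was 0.1, the smallest that 3 against 3 allows. The fold threshold was no longer met without replicate 1 of the knockdown, at -0.23 (edgeR adjusted p of 0.0003), or with scaling by library size alone, at -0.24. At a fold threshold of 0.5 no member was called.

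PSAT1, the aminotransferase of the second step of serine synthesis (chromosome 9, 78297125 to 78330093), showed a similar order of the libraries. It had 290.0, 292 and 308 CPM in control and 259, 265 and 273 CPM in knockdown libraries, with no overlap. The log2 fold change was -0.16 (SE 0.045, 95% interval -0.25 to -0.068), and edgeR gave a Benjamini-Hochberg adjusted p of 0.00681. Without replicate 3 of the control the adjusted p of that test was 0.0714, with a log2 fold change of -0.13. Counting genes without a fold threshold, 2 of 10 members passed the adjusted p, compared with 33.3% of all genes tested.

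PHGDH, which catalyzes the first and committed step of serine synthesis (chromosome 1, 119648411 to 119744218), had overlapping groups. It had 277, 275 and 273 CPM in control and 294, 268 and 278 CPM in knockdown libraries. The knockdown libraries enclosed the control values, and the control libraries were very close to each other. The log2 fold change was 0.024 with a 95% interval of -0.070 to 0.12, which excludes a change of 0.25 in either direction. The interval for PSAT1 lay wholly below 0 and that for PHGDH did not, but the difference between these enzymes was not tested.

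ATF4 itself (chromosome 22, 39519695 to 39522683) had 284, 295 and 301 CPM in control libraries. It had 272, 287 and 264 CPM in knockdown libraries. A single library, replicate 2 of the knockdown, made the groups overlap. The log2 fold change was -0.096 (SE 0.046, 95% interval -0.19 to -0.0015), and edgeR gave a Benjamini-Hochberg adjusted p of 0.114. At this depth, with at least 7950 counts per library, a drop of 0.25 on the log2 scale lay outside that interval. For ATF5 (chromosome 19, 49928702 to 49933935), the control libraries had 37.9, 39.0 and 36.4 CPM and the knockdown libraries 34.9, 34.8 and 32.9 CPM. These groups did not overlap, and the log2 fold change was -0.14 (95% interval -0.28 to -0.0071, adjusted p = 0.101 by the same edgeR test). Groups did not overlap for 3 of the 10 members, compared with 43.9% of all genes tested.

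The effectors of prolonged stress were low and variable. DDIT3, the proapoptotic factor CHOP (chromosome 12, 57516588 to 57521737), had 4.99, 6.00 and 5.32 CPM in control and 6.09, 5.61 and 4.24 CPM in knockdown libraries. Both the highest and the lowest value belonged to the knockdown group. Its log2 fold change was -0.038 (95% interval -0.35 to 0.27). CHAC1 (chromosome 15, 40952962 to 40956512) had 5.13, 4.25 and 5.74 CPM in control and 5.64, 4.13 and 4.91 CPM in knockdown libraries. Replicate 2 was the lowest in both groups, and the log2 fold change was -0.048 (95% interval -0.37 to 0.27). With 134 to 198 counts per library for these genes, a change of 0.25 was not detectable and lies within the intervals.

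TRIB3 (chromosome 20, 362835 to 397559) had 17.4, 17.3 and 16.9 CPM in control and 19.6, 15.8 and 16.2 CPM in knockdown libraries. Replicate 1 of the knockdown lay above all other libraries, and its replicates 2 and 3 lay below all controls. The group means, both 17.2 CPM, thus hide SDs of 2.08 CPM in the knockdown and 0.246 CPM in the control (n = 3). The difference in spread was not tested, and counting error for TRIB3 was up to 4.49% of a library's count. The log2 fold change was -0.0025 (95% interval -0.19 to 0.19). SESN2 (chromosome 1, 28259518 to 28282491) had 13.4, 12.2 and 11.8 CPM in control and 13.4, 10.8 and 11.1 CPM in knockdown libraries. Its groups overlapped through replicate 1 of the knockdown, and the log2 fold change was -0.085 (95% interval -0.30 to 0.13). ASNS had 1.09, 0.762 and 0.876 CPM in control and 0.992, 1.02 and 0.697 CPM in knockdown libraries, with a log2 fold change of -0.0074 and an interval, -0.72 to 0.70, too wide to exclude a sizeable change in either direction. Replicate 1 was the highest knockdown library for 6 of the 10 members (ATF5, DDIT3, TRIB3, CHAC1, SESN2 and PHGDH) and the lowest for PSAT1 and MTHFD2.

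**Figure D3:**
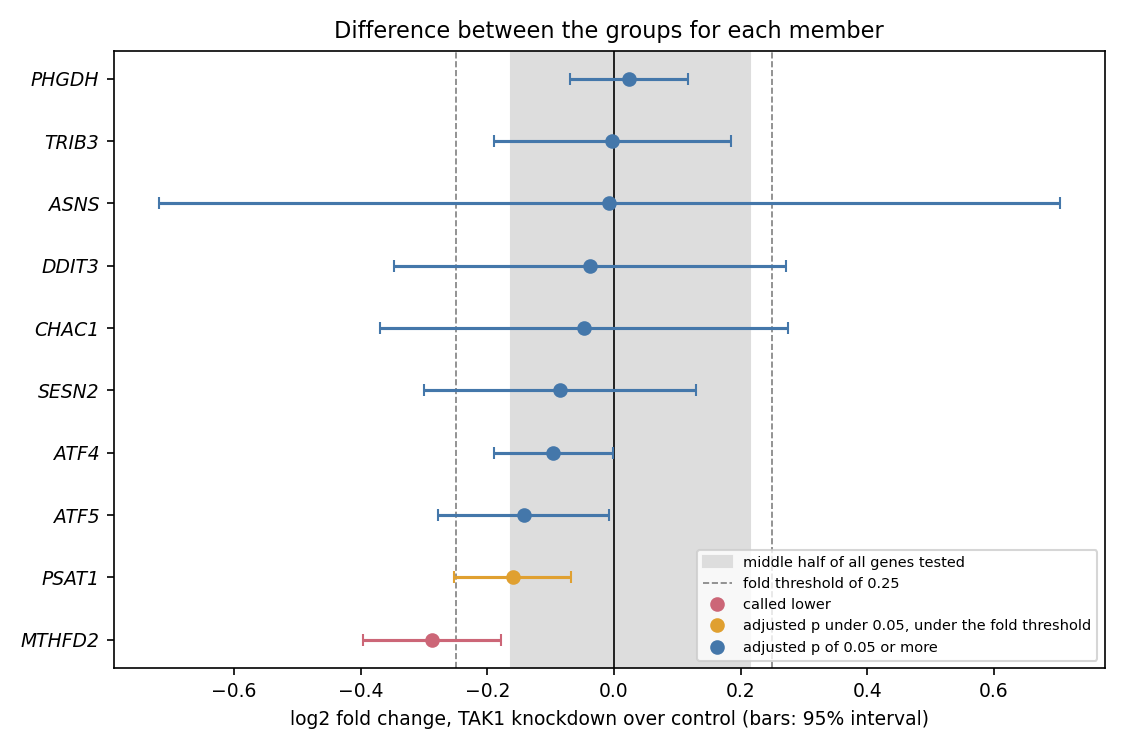
Log2 fold change of each member, TAK1 knockdown over control, with its 95% interval. The grey band runs between the quartiles of all genes tested, -0.16 and 0.22, and the dashed lines mark the fold threshold of 0.25. Only MTHFD2 lies past the threshold, and the intervals of ATF4, TRIB3 and PHGDH lie wholly inside it.

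Of the 10 members, 9 had a log2 fold change below 0, a count that fell to 5 with scaling by library size alone, where DDIT3, ASNS, TRIB3 and CHAC1 turned positive. In the main fit these genes had only -0.048 to -0.0025. Of all genes tested, 47.5% lay below 0 in the main fit and 39.8% with library size alone. The 95% intervals of ATF4, TRIB3 and PHGDH lay wholly within 0.25 of 0, as did those of 24.1% of all genes tested. The intervals of DDIT3, CHAC1, ASNS, ATF5, SESN2, MTHFD2 and, narrowly at -0.252, PSAT1 reached past 0.25 in at least 1 direction.

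The other enzymes of serine, glycine and one-carbon metabolism were mixed. Of 13 genes tested, 4 (30.8%) were called higher and 1 (7.69%) lower, and their median log2 fold change was -0.0024. Of all genes tested, 11.8% were called higher and 11.3% lower, for comparison with this and the following lists. The count of 4 was 2 with DESeq2, 3 without replicate 1 of the control, 1 without replicate 2 of the control, and 2 without replicate 3 of the control or any 1 of the knockdown libraries. The count lower was 2 without replicate 2 of the knockdown and 0 with scaling by library size alone. PSPH, the last step of serine synthesis, had 41.0, 45.6 and 48.8 CPM in control and 52.7, 52.0 and 48.2 CPM in knockdown libraries, a log2 fold change of 0.17 below the fold threshold. MTHFD1, the cytosolic trifunctional folate enzyme, fell with MTHFD2. Its means were 120 ± 6.72 CPM in control and 97.4 ± 3.13 CPM in knockdown (SD, n = 3), and its log2 fold change was -0.30 (-0.25, under the fold threshold, with scaling by library size alone). SHMT2, which splits serine to glycine in mitochondria, had a log2 fold change of -0.13 (edgeR adjusted p of 0.0198). Its cytosolic counterpart SHMT1 had -0.17 (edgeR adjusted p of 0.129), with a 95% interval, -0.35 to 0.0039, that included 0. Neither was called. In the other direction, the mitochondrial folate enzyme ALDH1L2 had a log2 fold change of 0.27 and lost its call without replicate 2 or 3 of either group, at 0.22 to 0.27. The folate carrier SLC25A32 had 1.22 at only 0.349 CPM in control, and it was no longer called with DESeq2 or without replicate 2 or 3 of the control (0.97 and 0.99) or replicate 1 or 3 of the knockdown (1.02 and 1.25). PSPH, SHMT2 and SHMT1, and XBP1, HERPUD1 and the other eIF2α kinases among the lists that follow, were named after their values were seen.

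Other amino acid synthesis genes counted among ATF4 targets had 3 (25%) called higher and 2 (16.7%) lower of 12 tested, with a median of 0.076. ALDH18A1 and PYCR1, which act in proline synthesis, rose by 0.50 and 0.34 on the log2 scale, and CTH, which makes cysteine, rose by 0.50. ASS1, the argininosuccinate synthase, fell by 0.54 and BCAT1 by 0.35. Among 22 other stress targets of ATF4, 2 (9.09%) were called higher, KLHL24 at 0.49 and DDIT4, an inhibitor of mTORC1, at 0.48. Lower were 4 (18.2%), among them GADD45A at -0.80, MAP1LC3B at -0.41 and CDKN1A at -0.41. Of 11 amino acid transporters, 18.2% were called higher and 9.09% lower. SLC6A9, the glycine transporter, rose by 0.71 and SLC7A5, a leucine carrier, by 0.27, while SLC38A1, a glutamine carrier, fell by 0.48. SLC7A5 lay under the fold threshold without replicate 2 or 3 of the control (0.25 and 0.24) or replicate 1 of the knockdown (0.20). The count of transporters called lower was 2 without replicate 3 of the control or replicate 1 or 3 of the knockdown. None of the 11 tRNA synthetases was called by edgeR's test, with log2 fold changes from -0.22 to 0.15 and a median of 0.038. Without a fold threshold 4 of them (NARS, SARS, TARS and YARS, named after their values were seen) were lower and 0 higher, and at an unadjusted p under 0.05 edgeR also had IARS and CARS higher. DESeq2 and limma-voom called 0 of the 11 in either direction, and 1 was called lower without replicate 3 of the knockdown.

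**Figure D4:**
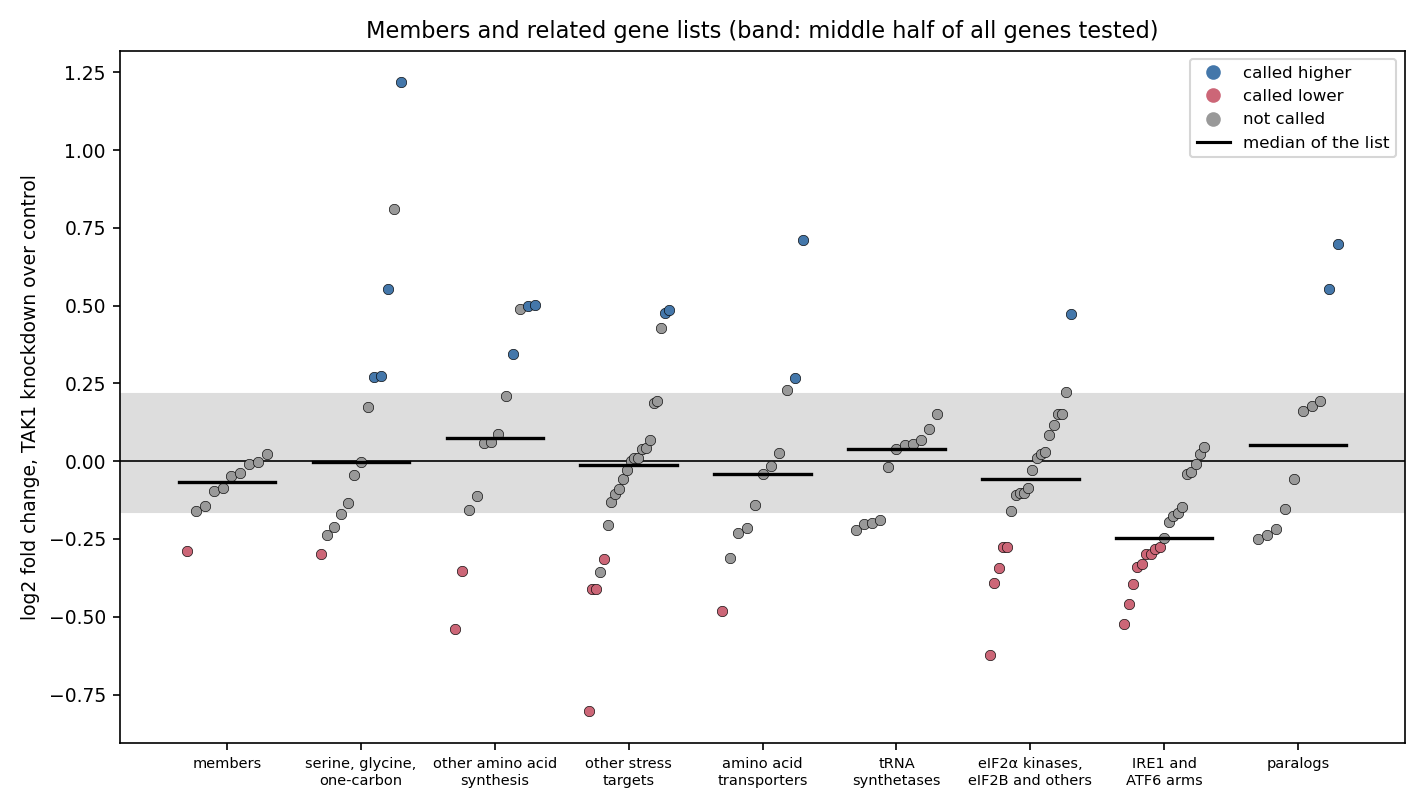
Log2 fold change, TAK1 knockdown over control, of each tested gene of the members and 8 related lists. Blue and red points were called higher and lower, grey points were not called, and black bars are medians. The band runs between the quartiles of all genes tested. All members but MTHFD2 and all tRNA synthetases lie within 0.25 of 0, while the IRE1 and ATF6 list has the lowest median, -0.25.

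Upstream of ATF4, genes of the eIF2α kinases, the exchange factor eIF2B and their regulators were counted. Of 20 tested, 5 (25%) were called lower and 1 (5%) higher, beside 11.3% and 11.8% of all genes tested. With scaling by library size alone these counts were 3 and 2, and at a fold threshold of 0.5 they were 1 and 0. EIF2AK3, which encodes the endoplasmic reticulum kinase PERK, rose from 23.4 CPM in control by 0.47 on the log2 scale. EIF2B4 and EIF2B2, subunits of eIF2B, fell by 0.62 and 0.34, and EIF2S1, which encodes eIF2α, by 0.39. The mRNAs of the other kinases GCN2, PKR and HRI (EIF2AK4, EIF2AK2 and EIF2AK1) had log2 fold changes of 0.08, 0.12 and 0.023 and were not called. These are mRNA levels and give no measure of eIF2α phosphorylation.

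The remaining branches of the unfolded protein response, driven by IRE1 and ATF6, were measured for comparison. Of 19 genes tested, 9 were called lower, or 47.4% against 11.3% of all genes, and 0 were called higher, with a median log2 fold change of -0.25. Called genes were mainly chaperones and folding factors of the endoplasmic reticulum. SEL1L, a scaffold of protein disposal, fell by 0.52, and MANF and SDF2L1 fell by 0.46 and 0.39. HSPA5, the main chaperone of the compartment, had 1655 ± 27.1 CPM in control and 1316 ± 21.4 CPM in knockdown (SD, n = 3) and fell by 0.33 on the log2 scale. It was named after its values were seen. By contrast XBP1 and HERPUD1 had -0.01 and -0.04. The count of 9 was 8 to 11 when each library was left out in turn, 6 with scaling by library size alone and 1 at a fold threshold of 0.5. Whether the members and this list differ was not tested.

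Paralogs of the members were compared last. TRIB1 had 23.2 ± 1.63 CPM in control and 37.7 ± 1.47 CPM in knockdown (SD, n = 3), and it rose by 0.70 on the log2 scale (Benjamini-Hochberg adjusted p of 4.03e-08 in edgeR), whereas TRIB3 had -0.0025. SESN1, a p53-responsive sestrin, had a log2 fold change of 0.56, whereas SESN2 had -0.085 and SESN3 -0.22. The cytosolic glutathione-degrading paralog CHAC2 had -0.25 and MTHFD2L, the close relative of MTHFD2, had -0.24, and neither was called, although CHAC2 had an adjusted p of 0.0247 in edgeR. Among paralogs not called, edgeR's unadjusted p was under 0.05 for 1 lower (CHAC2). It was also under 0.05 for TRIB2, CEBPD and CEBPB, which were higher and were named after their values were seen. Of these, TRIB2 and CEBPD also passed the adjusted p, at 0.00432 and 0.0387 in edgeR, with log2 fold changes of 0.16 and 0.18. In all, 2 of the 10 paralogs (20%) were called higher and 0 lower by edgeR, beside 11.8% and 11.3% of all genes tested. The count lower was 1 with DESeq2, with the replicate block, and without replicate 1 of the control or replicate 3 of the knockdown, 2 without replicate 2 of the knockdown, and 0 with limma-voom.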

How the data were processed

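RNA was sequenced from 3 control and 3 TAK1 knockdown RD libraries after poly(A) enrichment. The authors called bases with CASAVA, filtered reads for adaptors and quality, aligned them to GRCh38 with STAR, and deposited raw counts per gene symbol without normalization. The counter, annotation release and strand setting are not given in the sources used here. Groups and replicate numbers came from the sample titles.

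Differential expression was computed from the deposited counts with edgeR 4.0.16 in R 4.3.3 (default expression filter, trimmed mean of M-values, quasi-likelihood test, no replicate term), with Benjamini-Hochberg adjustment over 15935 genes. A gene was called when its adjusted p was below 0.05 and its log2 fold change reached 0.25 in either direction, as in the study. Standard errors were derived from each fold change and its F statistic, and 95% intervals use the test's degrees of freedom. At 28839898 to 34469323 counts per library, with a common biological coefficient of variation of 5.67%, counting error was at most 1.58% for MTHFD2 and 20.9% for ASNS. Replicates differed by more than sampling noise (chi-square per degree of freedom 2.88 to 8.74). The alternatives were DESeq2 1.42.0, limma-voom (limma 3.58.1), 3 normalizations, 2 filters, 2 fold thresholds, a replicate block and the omission of each library. The edgeR, DESeq2 and voom fits were tested on simulated data. TPM used GENCODE 44 canonical lengths, found for 86.9% of tested genes.

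The members and lists were chosen with earlier results of these data known. Genes named are the members, MAP3K7, and up to 3 highest and 3 lowest called genes of each list, except where stated, and 1 gene that the rule would name is not reported here. In all, 4 genes stand in 2 lists.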

Additional observations from a re-analysis of the deposited data

How the results depend on the processing

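No member was called higher under any of the 16 alternatives. At a fold threshold of 0.5, 735 genes were called higher and 680 lower, and without a fold threshold 2569 were higher and 2734 lower. Scaling by library size alone made 62.9% of calls upward, against 51.0%. The members called lower numbered 0 with scaling by library size alone and at the threshold of 0.5, 2 without a fold threshold, and 0 to 1 when each library was left out. MTHFD2 lost its call through the fold threshold, at -0.24 and -0.23. Over all alternatives its adjusted p ran from 7.57e-08 to 0.00194, and that of PSAT1 from 0.000637 to 0.0714. Signs near 0 were not stable. With library size alone DDIT3 had 0.010, ASNS 0.042, TRIB3 0.046 and CHAC1 0.00050, and with upper-quartile factors ASNS had 0.010 and TRIB3 0.015. With at least 10 counts in every library TRIB3 had 0.0017. Leaving out each library gave -0.14 to 0.090 for DDIT3, -0.12 to 0.14 for ASNS, -0.10 to 0.054 for TRIB3, -0.16 to 0.062 for CHAC1 and -0.013 to 0.054 for PHGDH. The cause was not tested.

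Correlations of the deviations across genes were 0.092, 0.056 and 0.035 for same-numbered libraries and -0.099 to 0.049 for differently numbered ones. Replicate 3 of the control correlated best with replicate 2 of the knockdown (0.049). Whether same-numbered libraries were handled together is not given in the labels and was not tested. With the replicate block 1942 genes were called higher and 1848 lower, 1 member stayed lower, and ATF4 had an adjusted p of 0.0445 at a log2 fold change of -0.096 (0.0426 to 0.46 over all alternatives).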
